A study of Mus musculus with 3 samples.

Results

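DNA replication and nucleotide synthesis genes were described in BCR::ABL1+ *Cdk6* KM/KM cell lines. The set held 39 genes, found in the count table by their Ensembl identifiers, of the 50686 genes listed there. They were chosen by function as genes used in S phase and not by their level, but with earlier results of these data known. All 39 had at least 10 counts over the lines and entered every comparison of counts between lines. Promoter windows were on hand for 32 of them.

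Bone marrow cells of C57BL/6 mice homozygous for the kinase-inactive *Cdk6* allele K43M (KM) were transduced with a retrovirus carrying BCR-ABL p185, the fusion kinase of BCR::ABL1+ acute lymphoblastic leukemia, until lines grew out. RNA-seq was performed on 3 such lines, described as pre/pro-B cells and kept in RPMI medium with serum, antibiotics and 2-mercaptoethanol. The study also holds *Cdk6* +/+ and *Cdk6* -/- lines, which were not analysed here, so that no genotype is compared with another in what follows. The 3 lines share the allele, the oncogene and the culture conditions, and the comparisons below are between lines.

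Before S phase, the origin recognition complex with CDC6 and CDT1 loads the MCM2-7 ring on DNA. The ring becomes the replicative helicase once CDC45 and GINS bind it, primase and DNA polymerase alpha start each strand, and polymerases epsilon and delta extend it together with the PCNA clamp, its RFC loader, FEN1 and DNA ligase I. Ribonucleotide reductase, thymidylate synthase, thymidine kinase and dUTPase supply the deoxynucleotides. Many of these genes are textbook targets of E2F transcription factors, which the RB protein restrains until CDK4 and CDK6 phosphorylate it.

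The libraries held 21569845, 19633463 and 25773221 counts in lines 1, 2 and 3. Of 12 B-lymphoid precursor markers, 11 reached 1 CPM (counts scaled to a common library size) in every line and summed to 3870 to 4394 CPM, and *Dntt* was at 0.967, 1.62 and 4.28 CPM. Markers of other cells were low, with sums of 24.3 to 50.6 CPM over 6 T-cell genes, nearly all of it *Lck*, of 1.75 to 3.93 CPM over 6 myeloid genes, of 0.118 to 0.322 CPM over 4 erythroid genes and of 0.322 to 0.861 CPM over 2 megakaryocyte genes. *Cd3e*, *Cd3g*, *Cd8a*, *Elane*, *Ly6g*, *Hba-a1*, *Hbb-bs*, *Pf4* and the 3 stromal markers had no count in any line. *Cdk6* itself was not level between the lines, at 450, 334 and 239 CPM, a range of 0.91 on the scale of log2(CPM + 1). A point mutation is not visible in counts per gene. Line 3 stood apart from the others in sex-linked transcripts, with 1350 *Xist* counts against 18 and 15, and with 2 *Kdm5d* counts against 954 and 1135.

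The promoter letters of a few members are shown first, with words of the E2F motif marked. RefSeq promoter windows (assembly GRCm38.p6) of 250 bases before and 50 after the start were on hand for 32 members, 38 windows in all. *Mcm4*, *Gins1*, *Gins2*, *Gins4*, *Prim2*, *Pole* and *Rfc2* had none. The letters TTTCCCGC, TTTGGCGC, TTTCGCGC and TTTGCCGC, 4 words of the E2F motif, were searched on both strands. *Mcm6* and *Mcm5*, helicase subunits whose levels moved in parallel between the lines, are given with their E2F words in capitals. *Rrm2* and *Tyms*, nucleotide enzymes that moved in opposite directions, hold no such word in these windows. The 4 genes are examples only, and a link between E2F words and the order of the lines was not tested. Other members broke this pairing. *Pole2* and *Pola1* hold a word and were highest in line 3, and *Mcm2* and *Mcm10* hold none and were highest in line 2. *Mcm3*, *Orc1*, *Cdc6* and *Cdt1* hold one and were highest in line 2. The 250 bases before the start lie at chr1:128359706-128359955 (minus strand) for *Mcm6*, at chr8:75109259-75109508 (plus strand) for *Mcm5*, at chr12:24708004-24708253 (plus strand) for *Rrm2* and at chr5:30073626-30073875 (minus strand) for *Tyms*, and read 5′ to 3′ along the gene's strand:
Mcm6: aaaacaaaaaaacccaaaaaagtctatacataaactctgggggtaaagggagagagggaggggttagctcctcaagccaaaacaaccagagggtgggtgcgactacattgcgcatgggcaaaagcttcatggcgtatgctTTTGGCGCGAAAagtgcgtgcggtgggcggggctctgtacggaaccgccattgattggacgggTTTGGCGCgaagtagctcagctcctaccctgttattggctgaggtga
Mcm5: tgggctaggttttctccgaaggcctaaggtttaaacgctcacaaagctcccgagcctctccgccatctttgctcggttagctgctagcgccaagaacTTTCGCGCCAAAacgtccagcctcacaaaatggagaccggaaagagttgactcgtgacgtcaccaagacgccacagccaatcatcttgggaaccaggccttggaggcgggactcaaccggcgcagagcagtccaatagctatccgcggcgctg
Rrm2: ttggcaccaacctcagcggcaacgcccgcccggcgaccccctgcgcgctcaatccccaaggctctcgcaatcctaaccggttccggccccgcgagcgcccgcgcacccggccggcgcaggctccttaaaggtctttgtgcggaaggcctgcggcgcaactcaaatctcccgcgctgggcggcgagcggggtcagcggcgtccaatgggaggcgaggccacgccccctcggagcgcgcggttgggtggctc
Tyms: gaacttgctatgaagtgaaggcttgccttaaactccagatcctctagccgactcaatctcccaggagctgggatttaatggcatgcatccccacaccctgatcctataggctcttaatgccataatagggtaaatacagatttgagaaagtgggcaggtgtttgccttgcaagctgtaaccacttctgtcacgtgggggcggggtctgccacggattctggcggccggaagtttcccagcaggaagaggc

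Counted from the first transcribed base as +1, *Mcm6* carried E2F words at -110 to -103, at -106 to -99 and at -47 to -40. The first pair overlapped on opposite strands. In *Mcm5*, overlapping words lay at -153 to -146 and at -149 to -142. Over all members, 14 of 38 windows (36.8%) held an E2F word, against 4.04% of the 12409 windows of genes tested and 2.26% of all 32851 windows. These were windows of *Orc1*, *Cdc6*, *Cdt1*, *Mcm3*, *Mcm5*, *Mcm6*, *Mcm7*, *Gins3*, *Pola1*, *Pold1*, *Pold3*, *Pole2*, *Rfc3* and *Lig1*, which span licensing, helicase, polymerases and clamp loading, and none of the 5 nucleotide enzymes was among them. Among 57 windows of 48 other genes of the same pathways, 9 (15.8%) held one.

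The remaining words were less set apart. CCAAT, bound by NF-Y, was found in 55.3% of member windows and 38.2% of windows of genes tested. GGGCGG, the core of the SP1 motif, stood in 68.4% and 61%, and CCGGAAG, an ETS word, in 26.3% and 17.7%. Windows of other genes of the pathways held CCAAT in 40.4%, GGGCGG in 78.9% and CCGGAAG in 29.8%, the last 2 above the members. The NRF-1 palindrome was in no member window (0 of 38), in 2.16% of the windows of genes tested and in 8.77% of those of other pathway genes. With 38 windows, a share as low as 2.16% may give no match. The searched motifs may overlap where E2F and SP1 words share C and G letters. A match is a description of letters, and binding was not measured here.

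**Figure D1:**
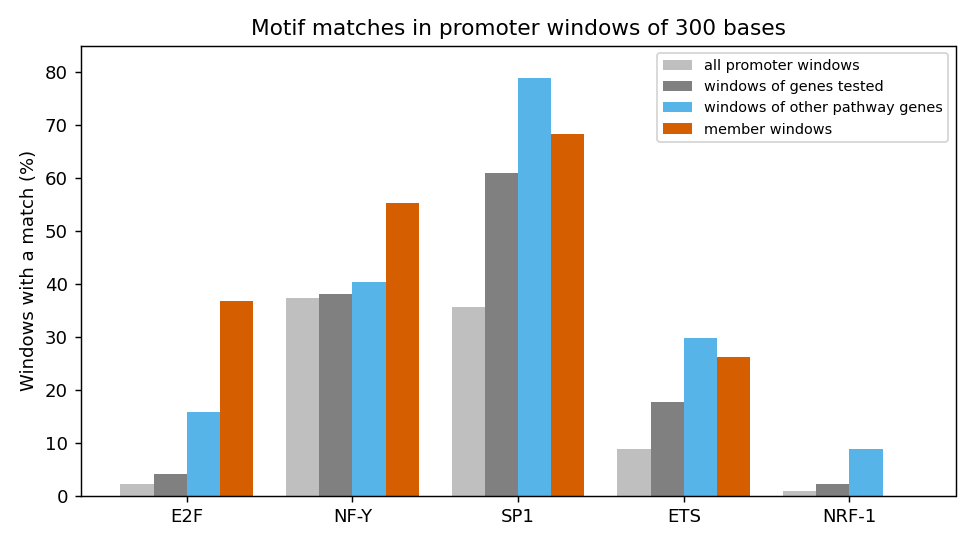
Share of promoter windows of 300 bases with at least 1 match (y axis, %) for the 5 motifs (x axis), in all RefSeq windows, those of genes tested, those of other genes of the pathways and those of the members. For E2F, the member bar stands at 36.8% beside 4.04% for genes tested, and for NRF-1 the member bar is at 0.

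As a group, the members took a similar share of each transcriptome. They held 0.810% of all counts in line 1, 0.928% in line 2 and 0.851% in line 3 (0.863% ± 0.0599, SD, n = 3). Line 2 had the largest share and line 1 the smallest. The helicase genes made up the largest part, with 0.328%, 0.399% and 0.358% of counts, whereas the licensing genes held 0.0523% ± 0.00195 (SD, n = 3). In bulk RNA, fewer cells in S phase and less replication RNA per cell cannot be told apart.

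To ask which members differed between lines, counts of each gene were tested for homogeneity over the 3 libraries (chi-square test against normalized library sizes, Benjamini-Hochberg adjustment over all 13974 genes tested, threshold 0.05). The test compares these libraries with counting noise and not conditions. It found a difference for 37 of 39 members, where the background was 66.8% of genes tested and 81.2% of the 8528 genes of at least 10 CPM. *Pold3*, an accessory subunit of polymerase delta, and *Rfc4* of the clamp loader did not pass, with adjusted p = 0.143 and 0.0776 in the chi-square test. The sizes of the differences are therefore given. The range between the highest and the lowest line on the scale of log2(CPM + 1) had a median of 0.39 over the members, beside 0.32 over all genes tested and 0.28 over genes of at least 10 CPM. Of the members, 10 had a range of at least 0.5 and differed (background 29.8%, or 23.9% of genes of at least 10 CPM), and only *Tyms* reached 1 (background 10.9%). By role, the median range was 0.21 for licensing, 0.33 for the helicase, 0.48 for primase and polymerases, 0.42 for clamp, loader and Okazaki fragment genes and 0.72 for nucleotide synthesis.

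**Figure D2:**
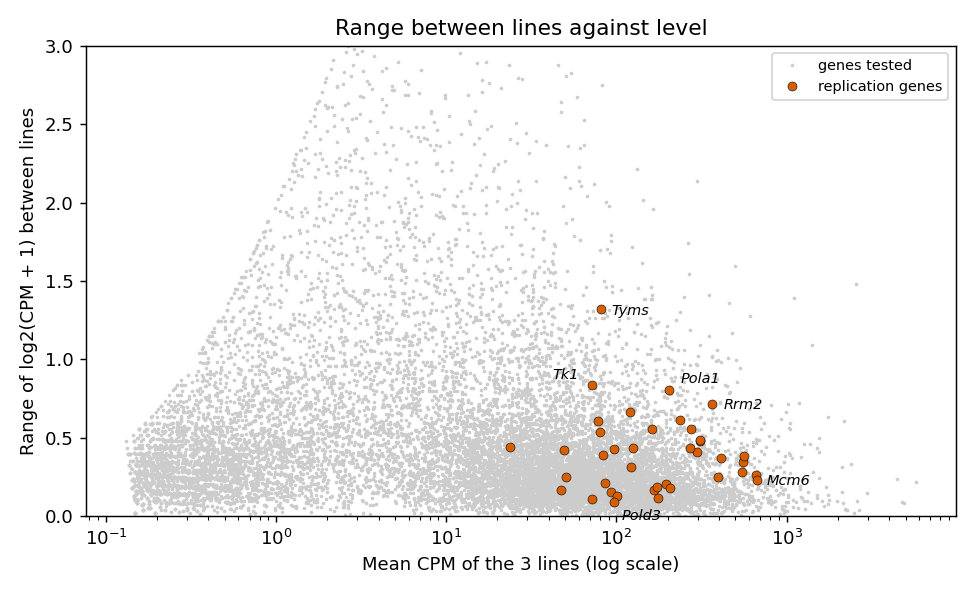
Range of log2(CPM + 1) between the lines (y axis) against the mean CPM of the 3 lines (x axis, log scale) for all genes tested (grey) and the 39 replication genes (orange). *Tyms* at 1.32 lies above the other members, most of which sit between 0.1 and 0.5, and 139 genes lie above the upper limit of the y axis.

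Line 1 was often the lowest and line 2 often the highest among the members. Line 1 was the lowest for 27 of 39 members (69.2%, against 34.5% of genes tested), of which 26 differed in the test (background 23.7%). Line 2 was the highest for 21, of which 20 differed (background 20.6%). The full order of line 1 lowest and line 2 highest was seen in 17 members (43.6%), compared with 15.0% of genes tested. On the log2 scale, the members lay at a median of -0.08 from the mean of the lines for line 1, 0.10 for line 2 and -0.00055 for line 3, where all genes tested had medians of -0.01, 0.00 and 0.00. Members are different genes of the same 3 libraries and not replicates.

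Members on chromosome 5 had another order. It carries 7 members, *Mcm7*, *Pole*, *Rfc1*, *Rfc2*, *Rfc3*, *Rfc5* and *Tyms*, and all 7 differed and were lowest in line 3 (background 23.7%), with 5 of them highest in line 1 (background 20%). The 951 other genes tested on chromosome 5 leaned the same way, with medians of 0.23, -0.06 and -0.16 in lines 1, 2 and 3. Of these other genes, 73.7% were highest in line 1 and 59.4% were lowest in line 3. Of the 32 members elsewhere, 27 were lowest in line 1 and 3 in line 3. The part of the chromosome in the values of these 7 genes was not tested, and the deviation of the tested genes within 5 Mb of a member is given beside its values below. With that median subtracted from every member, the median range of the members was 0.30.

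**Figure D3:**
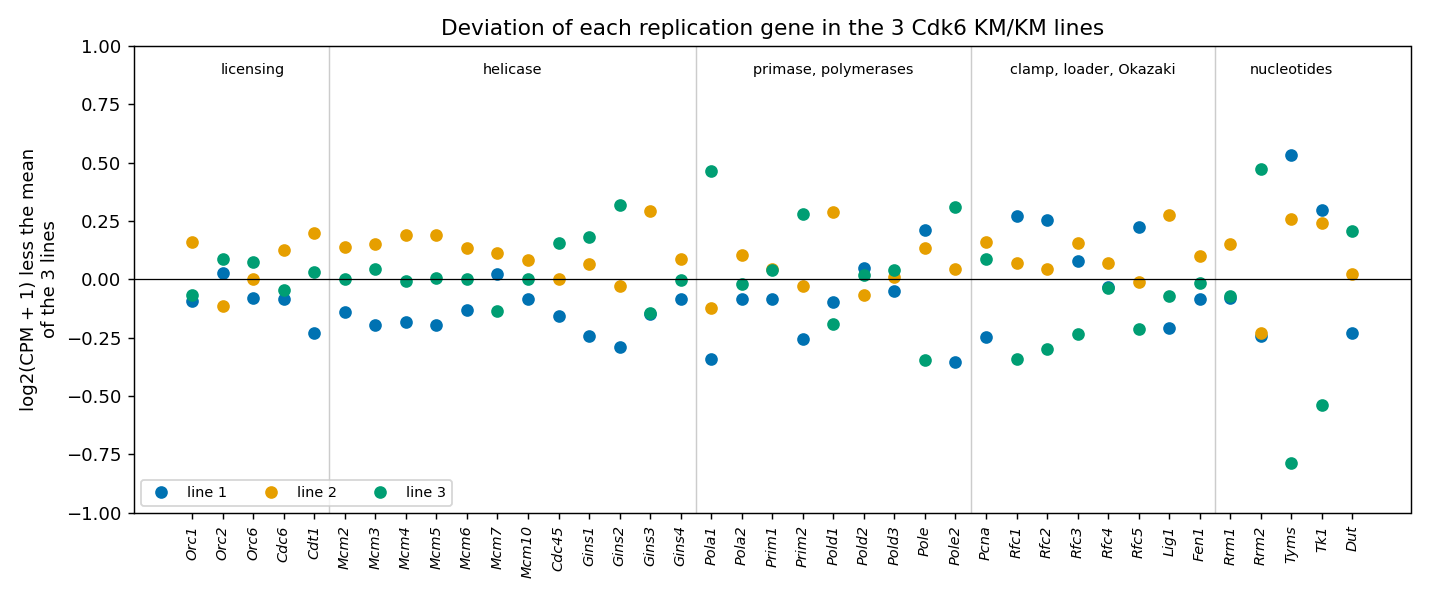
Deviation of log2(CPM + 1) from the mean of the 3 lines (y axis) for each of the 39 genes (x axis), ordered by role, with 1 point per line. From *Mcm2* to *Mcm6*, line 1 lies lowest and line 2 highest in every gene, whereas *Tyms* and *Tk1* are lowest and *Rrm2* is highest in line 3.

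Licensing genes varied little. *Orc1*, the ATPase subunit of the origin recognition complex, had 47.3, 56.5 and 48.1 CPM in lines 1, 2 and 3, and was the lowest of the 5 genes per length (TPM). *Orc2*, another subunit, had 199, 181 and 208 CPM and was the highest by the union of exons, at 195 ± 10.4 TPM (a level per transcript length, SD, n = 3). With the length of a single transcript *Orc6* was the highest, at 181 ± 7.38 TPM, and *Orc2* had 137 ± 7.44 TPM. Of the 50-base stretches of the *Orc2* transcript, 21.6% were also found in *Nif3l1*. *Cdt1*, the loading factor that geminin blocks, had the largest range, with 81.8, 110.3 and 98.2 CPM and a range of 0.43. Line 2 was the highest for *Orc1*, *Cdt1* and *Cdc6*, the other loading factor, but the lowest for *Orc2*. *Orc6* completed the group with 0.16 between lines. Between lines 1 and 3 no difference was detected for *Orc1* or *Cdc6* (chi-square adjusted p = 0.933 and 0.721 without line 2). *Orc2* lost its call without line 2, and *Orc6* without line 1 or without line 3.

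Of the MCM2-7 ring, 5 of 6 subunits kept a common order of the lines. *Mcm2* had 495, 602 and 547 CPM in lines 1, 2 and 3. *Mcm3* had 482, 612 and 568 CPM, and *Mcm4* had 362, 468 and 409 CPM. All 3 genes were lowest in line 1 and highest in line 2. *Mcm5* showed the same order with 487, 637 and 561 CPM, and so did *Mcm6* with 599, 721 and 658 CPM. *Mcm7*, on chromosome 5, was the one subunit that broke it, with 403, 429 and 360 CPM and a range of 0.25, or 0.08 without line 3. Its neighbours deviated by 0.21, -0.04 and -0.15 in the same lines. Less this shift, *Mcm7* stood at -0.18, 0.15 and 0.01, with line 1 lowest and line 2 highest as for the other subunits, and a range of 0.34.

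Ratios of subunits within a library, which do not depend on the scaling between libraries, were also compared. The CPM ratio of *Mcm2* to *Mcm6* was 0.825, 0.835 and 0.831, a coefficient of variation of 0.563%. The ratios of *Mcm3*, *Mcm4* and *Mcm5* to *Mcm6* varied by 3.74%, 3.65% and 4.21%. That of *Mcm7* to *Mcm6* was 0.672, 0.594 and 0.548 and varied by 10.4%. *Mcm6* and *Mcm5* are the genes whose promoter letters with paired E2F words were printed above, and *Mcm2*, which tracked *Mcm6* most closely, held no E2F word in its window.

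Per length, the ring subunits were among the most abundant members. *Mcm3* led with 567 ± 69.8 TPM (SD, n = 3), followed by *Mcm6* with 543 ± 54.6 and *Mcm5* with 541 ± 76.5, and the values of these 3 over the lines overlapped. *Mcm4* had 443 ± 60.9, *Mcm7* 345 ± 37.6 and *Mcm2* 303 ± 32.0 TPM. The level of *Mcm3* was 1.87 times that of *Mcm2*. This order rested on the length assigned to each gene, the union of its exons. With the length of the transcript of the longest coding sequence instead, the ratio was 1.12, *Mcm6* came first with 567 ± 56.7 and *Mcm4* last with 288 ± 39.5 TPM. For *Mcm7*, 34.2% of its transcript's stretches of 50 bases were also found in *Gm5487* or *Ap4m1*, so that its reads may be partly lost or shared.

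Among the other helicase factors, *Gins2* varied most. The GINS complex joins CDC45 and the ring. *Gins2* had 62.7, 75.5 and 96.1 CPM, with line 3 highest and a range of 0.61, and 0.26 without line 3. However, 70.3% of its stretches were found, on either strand, in *Gse1*, so that its counts may be uncertain. *Gins1* with 41.0, 51.1 and 55.4 CPM and *Cdc45* with 108, 121 and 135 CPM were likewise lowest in line 1 and highest in line 3, but *Gins1* lost its call without line 1. *Gins3*, the lowest of all 39 members per length at 33.9 ± 7.04 TPM, had 21.1, 29.1 and 21.2 CPM, and no difference between lines 1 and 3 was detected (adjusted p = 0.929 in the chi-square test without line 2). *Gins4* exceeded *Gins3* by 3.95 times per length. Its difference between lines was at the limit (chi-square adjusted p = 0.0436) and was lost with DESeq2 size factors (0.0625), under both other filters on low counts and without line 1 or line 2. *Mcm10*, which helps to start unwinding, had 157, 176 and 166 CPM, a range of 0.17, and lost its call without line 2.

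**Figure D4:**
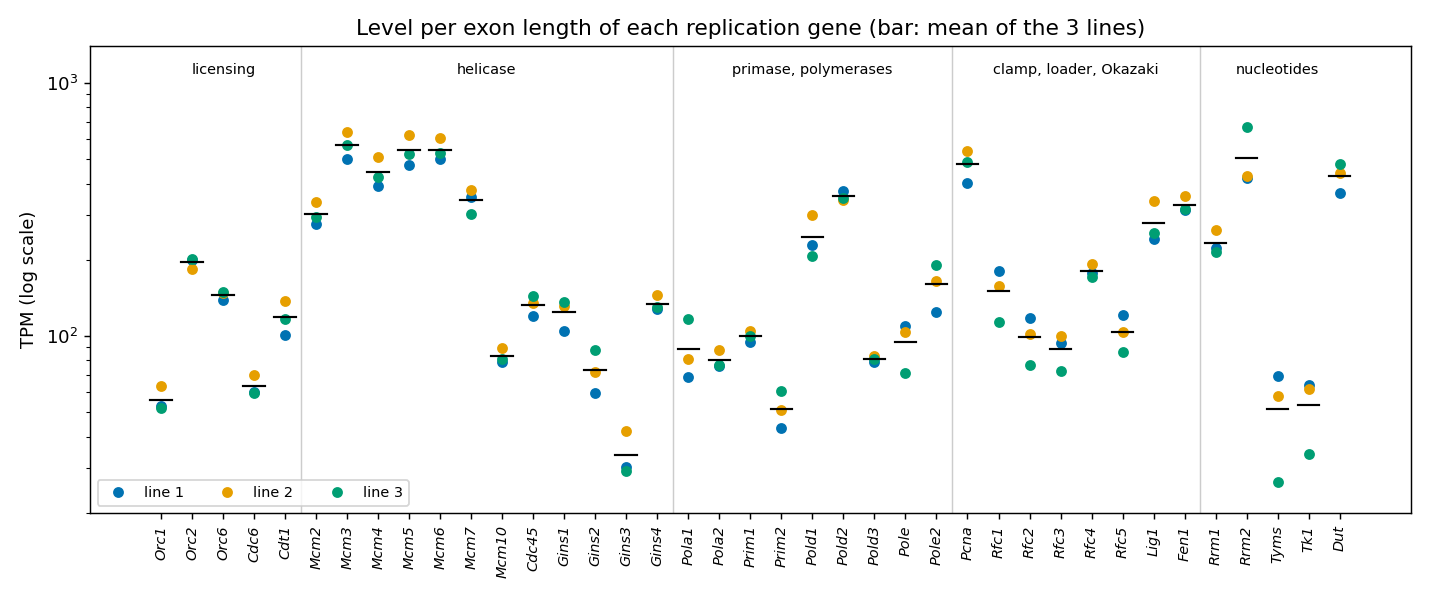
Level of each member in TPM (y axis, log scale) from the union of its exons, with 1 point per line and a bar for the mean of the 3 lines. *Mcm3* is at the top with a mean of 567 TPM and *Gins3* at the bottom with 33.9 TPM.

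Partner subunits of the polymerases did not keep their ratios. *Pola1*, the catalytic subunit of polymerase alpha, lies on the X chromosome from 93304767 to 93632155 (minus strand, mm10) and had 157, 183 and 275 CPM, a range of 0.81. Its 18 tested neighbours within 5 Mb deviated by -0.31, -0.17 and 0.57 in the same lines, and less this shift the range was 0.16. Line 3, the line with *Xist* counts, was the highest, and without it the range was 0.22. *Pola2*, the regulatory subunit on chromosome 19, had 163, 186 and 170 CPM, so that the ratio of *Pola1* to *Pola2* went from 0.962 and 0.984 in lines 1 and 2 to 1.61 in line 3. Without line 2, the call of *Pola2* was lost.

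The primase pair differed in the same direction. *Prim1*, the catalytic subunit, had 94.5, 103.3 and 103.1 CPM and varied by 0.13, and its call was lost without line 1. *Prim2*, the large subunit, had 65.9, 77.2 and 95.9 CPM with a range of 0.54, or 0.22 without line 3. Its neighbours on chromosome 1 deviated by at most 0.02, and the ratio of *Prim2* to *Prim1* was 0.697, 0.747 and 0.930. *Prim1* was the highest gene of the polymerase alpha-primase complex per length at 99.7 ± 4.78 TPM and *Prim2* the lowest at 51.4 ± 8.70. With the single-transcript length *Pola2* was the highest, at 179 ± 14.1 TPM, and *Pola1* the lowest, at 95.5 ± 26.8 TPM.

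Among the polymerases, the ratio of an accessory to a catalytic subunit varied most in polymerase epsilon. *Pole*, the catalytic subunit on chromosome 5, had 313, 297 and 212.5 CPM, with line 3 lowest. Its range was 0.56, but 0.08 without line 3, and its neighbours deviated by 0.23, -0.03 and -0.16. Less this shift the range was 0.35. *Pole2* lies on chromosome 12 from 69201773 to 69228195 (minus strand) and had 92.2, 122 and 147 CPM, a range of 0.66, with line 3 highest and line 1 lowest. Its 46 neighbours went the other way, with deviations of 0.21, 0.25 and -0.49, and less this shift its range was 1.37. The ratio of *Pole2* to *Pole* was 0.294, 0.411 and 0.690, a 2.34-fold difference between lines 1 and 3. For *Pole2*, 11.8% of stretches were shared with *Gm49384*.

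Of the 3 members that belong to polymerase delta, which extends the lagging strand, the catalytic subunit varied most. *Pold1* had 286, 375 and 268 CPM, a range of 0.48, with line 2 highest. *Pold2* had 182, 167 and 178 CPM and *Pold3* had 93.8, 97.6 and 99.9 CPM, the smallest range of all members at 0.09. *Pold4*, a further subunit that is no member, had 53.7, 53.5 and 73.9 CPM. Its range was 0.46, with line 3 highest. Without line 2, *Pold1* varied by 0.11 and the call of *Pold2* was lost. Per length, *Pold2* was the highest gene of the primase and polymerase group at 356 ± 14.2 TPM.

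The sliding clamp *Pcna* had 248.6, 331 and 314 CPM, lowest in line 1, and was the most abundant gene of its group per length, at 476 ± 69.1 TPM by union length and 490.3 ± 71.3 TPM by single-transcript length. Without line 1 its range fell from 0.41 to 0.08. Of its stretches, 31.8% were shared with the pseudogene *Pcna-ps2*. *Lig1*, which seals Okazaki fragments, had 266, 372 and 292 CPM, highest in line 2, and its range of 0.48 was 0.12 without line 2. *Fen1*, the flap nuclease, had 196, 222 and 205 CPM, but 81.2% of its stretches were shared with *Gm10143* or *Tmem258*, and its call was lost without line 2.

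The clamp loader genes were all lowest in line 3. Those on chromosome 5 had larger ranges than *Rfc4*, which did not pass the test. *Rfc1*, the large subunit, had 280, 243 and 183 CPM in lines 1, 2 and 3, and its neighbours deviated by 0.20, -0.08 and -0.09. *Rfc2* had 191, 165 and 129.8 CPM, and *Rfc5* had 146, 124 and 107 CPM. These 3 genes of chromosome 5 were all highest in line 1 and lowest in line 3. Their ranges were 0.61, 0.55 and 0.43, or 0.40, 0.27 and 0.10 less the shift of their neighbours, and *Rfc1* and *Rfc2* varied by 0.20 and 0.22 without line 3. *Rfc3*, also on chromosome 5, had 87.2, 92.0 and 70.0 CPM and a range of 0.39, or 0.30 less the shift of its neighbours, and its call was lost without line 3. *Rfc4*, on chromosome 16, had 70.2, 75.5 and 69.9 CPM with a range of 0.11, and passed the test with library sizes alone and without line 1. The ratio of *Rfc1* to *Rfc4* was 3.98, 3.22 and 2.61. By union length *Rfc4* was the highest loader gene, at 180 ± 11.2 TPM, and *Rfc3* the lowest, at 88.6 ± 14.2. With the single-transcript length *Rfc3* was the highest, at 158 ± 25.1 TPM, *Rfc4* followed with 141 ± 8.57, and *Rfc2* was the lowest with 81.2 ± 16.7. Shared stretches made up 23.0% of *Rfc5*, 19.8% of *Rfc2* and 11.1% of *Rfc4*.

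**Figure D5:**
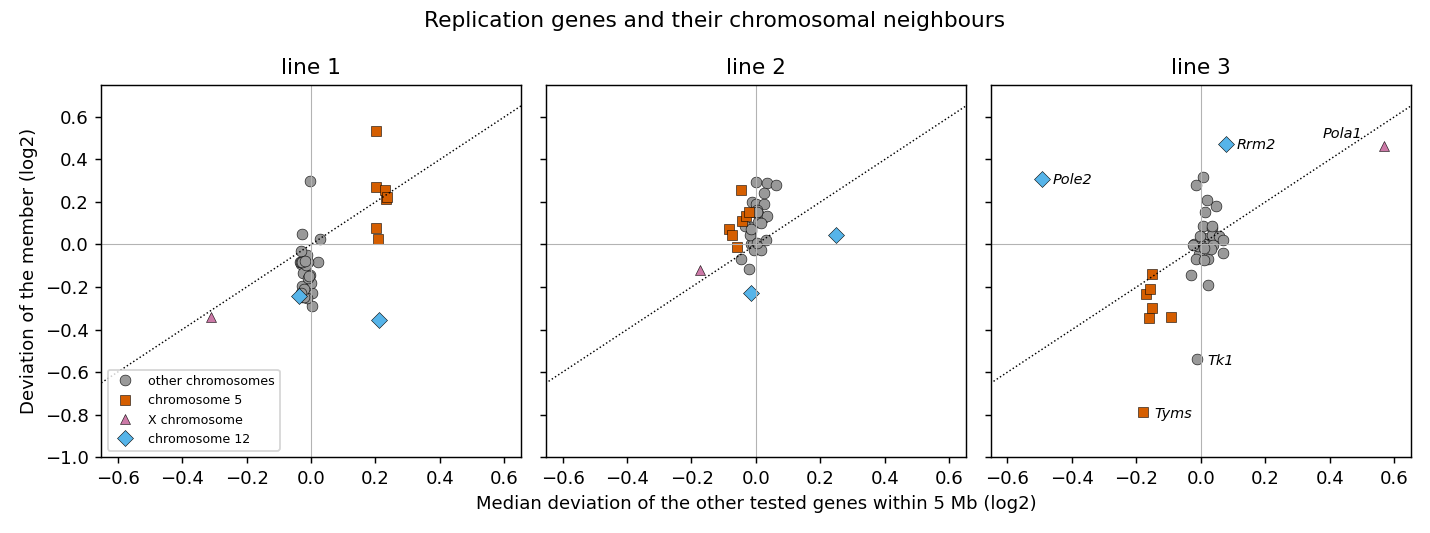
Deviation of each member from the mean of the lines (y axis, log2) against the median deviation of the other tested genes within 5 Mb (x axis, log2), with 1 panel per line and the dotted line of equal values. Chromosome 5 members (squares) are shifted to the right in line 1 and to the left in line 3 together with their neighbours, *Pola1* lies near the dotted line, and *Pole2*, *Rrm2*, *Tk1* and *Tyms* lie away from it in line 3.

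*Tyms* and *Tk1* had the largest ranges of all members, and *Rrm2* ran in the opposite direction in line 3. The other nucleotide genes *Dut* and *Rrm1* ranked 14 and 28 of the 39 members by range. *Rrm2* is the subunit of ribonucleotide reductase that limits its activity over the cell cycle. It lies on chromosome 12 from 24708241 to 24714146 (plus strand) and had 301, 304 and 495 CPM in lines 1, 2 and 3. Lines 1 and 2 were alike to within 0.01 on the log2 scale in the fit without line 3 (adjusted p = 0.747 in the chi-square test), and line 3 was higher, with a range of 0.72. The neighbours of *Rrm2* deviated by -0.04, -0.02 and 0.08. *Rrm1*, the large subunit of the same enzyme, had 631, 741 and 634 CPM, and no difference between lines 1 and 3 was detected (chi-square adjusted p = 0.556 without line 2). The ratio of *Rrm2* to *Rrm1* was accordingly 0.476, 0.410 and 0.781. Per length *Rrm2* was the most abundant gene of the group at 506 ± 140 TPM with union lengths, and *Dut* at 658 ± 88.6 TPM with single-transcript lengths.

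*Tyms*, thymidylate synthase, makes the thymidine nucleotide from dUMP and lies on chromosome 5 from 30058202 to 30073617 (minus strand). It had 109, 90.2 and 43.2 CPM, a range of 1.32, larger than that of 93.5% of genes tested. Line 3 was 2.53-fold lower than line 1. The neighbours of *Tyms* deviated by 0.20, -0.05 and -0.18, and less this shift the range was 0.94. Without line 3 and with no subtraction, lines 1 and 2 differed by 0.28. Less the shift of its neighbours, *Tyms* stood at 0.33 and 0.30 in lines 1 and 2 and at -0.61 in line 3. Of its stretches, 11.05% were shared with other genes, led by the pseudogene *Tyms-ps*.

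*Tk1*, cytosolic thymidine kinase, feeds the same pool by salvage and followed *Tyms*. It lies on chromosome 11 from 117815526 to 117826092 (minus strand) and had 85.7, 82.3 and 47.5 CPM, a range of 0.84. Its 153 neighbours deviated by at most 0.02 in any line, and the range less this shift was 0.83. Lines 1 and 2 differed by 0.06 without line 3 (chi-square adjusted p = 0.305), and line 3 was lower. Within libraries, the ratio of *Tyms* to *Rrm2* was 0.364, 0.297 and 0.0873, a 4.17-fold difference, and that of *Tk1* to *Rrm2* was 0.285, 0.271 and 0.0960, a 2.97-fold difference. The ratio of *Tk1* to *Tyms* varied by 1.40-fold. By union length *Tyms* and *Tk1* had 51.4 ± 22.3 and 53.3 ± 16.6 TPM, and by single-transcript length 64.3 ± 27.8 and 125 ± 38.8 TPM, with values that overlapped over the lines in both cases. *Dut*, the dUTPase that yields dUMP for thymidylate synthase, went with *Rrm2* in direction, at 228, 271 and 308 CPM. The 5 genes together, *Rrm1* included, held 0.136%, 0.150% and 0.151% of counts in lines 1, 2 and 3.

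Other genes of the same pathways gave a background of known function. Of 55 further genes listed for licensing and firing, the fork and nucleotide metabolism, 44 (80%) differed between lines. The background was 66.8% of genes tested and 81.2% of genes of at least 10 CPM. The 55 genes had a median range of 0.25, compared with 0.39 for the members. In the fork list, 21 of 24 (87.5%) differed, 17 were lowest in line 1 and 15 highest in line 2. Among genes tested, 34.5% were lowest in line 1 and 31.7% highest in line 2. In the licensing list 9 of 13 (69.2%) and in the nucleotide list 14 of 18 (77.8%) differed. In these lists, 4 and 8 genes were lowest in line 1. The median range was 0.32 in the licensing list, 0.24 in the fork list and 0.22 in the nucleotide list. The members of nucleotide synthesis had 0.72. All 55 were tested, and those with a range of at least 0.5 were 4. *Samhd1*, the dNTP hydrolase, had 72.3, 58.8 and 107 CPM and was highest in line 3. *Orc5*, an origin recognition subunit, had 50.0, 31.6 and 36.8 CPM. *Cad*, which starts pyrimidine synthesis, had 910.3, 686 and 601 CPM, and *Paics*, an enzyme of purine synthesis, had 533, 464 and 359 CPM. The last 3 lie on chromosome 5 and were highest in line 1.

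Mitotic genes were used as a contrast. Of 15 such genes, 12 (80%) differed between the lines, with a median range of 0.18. The background was 66.8% of genes tested, or 81.2% of genes of at least 10 CPM. *Cenpf*, a kinetochore protein, had 178, 214 and 149.8 CPM and was the only one with a range of at least 0.5. Line 1 was the lowest for 6 of the 15 (40%), line 3 for 6 and line 2 for 3, while line 1 was the lowest for 69.2% of the replication genes. No test was made of this difference between lists.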

How the data were processed

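RNA-seq libraries of 3 *Cdk6* KM/KM BCR::ABL1+ lines were analysed. The labels name a SENSE mRNA kit with single-end reads of 50 bp, the study's methods a TruSeq kit. The authors trimmed reads with Trimmomatic, aligned them to mm10 (GRCm38) with STAR and counted reads over Gencode exons with featureCounts, without pooling lines. The deposited values are raw counts per gene, with no normalization. The settings for strand and for reads with several matches are not given in the sources used here, so overlapping and near-identical genes may share or lose reads. The table held 6 further sample columns, which were not used. Every row carried an Ensembl gene identifier.

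Of the 50686 gene identifiers, 50462 matched Gencode M21 (mm10), which gave positions and lengths. Names were assigned by Ensembl identifier. Library sizes were normalized by TMM (edgeR 4.0.16, R 4.3.3) to CPM, and 1 was added before log2. The study's filter of 10 counts, taken over these lines, was applied. Homogeneity was tested by chi-square with Benjamini-Hochberg adjustment over all genes kept. TPM was computed from counts and exon lengths. The lines grew out separately and each was sequenced as a single library. The spread is therefore between libraries, and differences between lines and between library preparations cannot be told apart. Any 2 libraries differed at no fewer than 6102 genes. Depth sets a limit of 0.118 to 0.152 CPM for a gene without counts (3 counts). Values after ± are SDs over the lines, whereas the depth limit and the chi-square test account for counting error only. Promoter windows were those of RefSeq. Shared stretches are the 50-base stretches of a member's longest coding transcript found, on either strand, in transcripts of other genes. Matches on the same and on the opposite strand were not separated. Python 3.11.15, numpy 2.4.6, pandas 2.3.3, scipy 1.17.1 and matplotlib 3.10.9 were used, and the test was tried on simulated data.

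Members and lists were chosen with earlier results of these data known. By rule, values per line were given for the highest, the lowest and the most variable gene of each role, for members with a range of at least 0.5, for MCM2-7, *Pcna*, *Rrm1*, *Rrm2*, *Tyms* and *Tk1*, and for other pathway genes with a range of at least 0.5. Values of further members complete their complexes. Alternatives were DESeq2 1.42.0 size factors, library sizes alone, no filter or 10 counts in every line, a threshold of 0.01, a pseudocount of 0.1, subtraction of neighbours within 5 Mb, single-transcript lengths and each line left out.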

Additional observations from a re-analysis of the deposited data

How the results depend on the processing

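No paired analysis was possible because the lines form a single group. The number of members that differed between lines was 36 to 38 under the other normalizations, filters and the threshold of 0.01 (45.3% to 74.6% of all genes tested), 27 to 34 with each line left out (27 without line 2, beside 54.5% of genes tested), and 1 when a range of at least 1 was also asked for. The median range of 0.387 became 0.179 to 0.217 with a line left out, as a range over fewer lines is smaller by construction (0.181 to 0.208 over all genes tested), and 0.297 with the neighbours' median subtracted. By single-transcript lengths, the ratio of *Mcm3* to *Mcm2* was 1.12, that of *Prim1* to *Prim2* was 1.62 and that of *Rfc4* to *Rfc3* was reversed to 0.89, because a shorter length raises a level per length. The median deviation stayed below 0 in line 1 and above 0 in line 2 under every alternative run. In line 3 it changed sign between settings, from -0.0625 to 0.0326 with a line left out. The members' median biological coefficient of variation (0.153, and 0.279 over all genes tested) was 0.124 to 0.180 with a line left out, and their share of counts was 0.830% to 0.889%. Over all alternatives run for single members, a call was lost 22 times and gained 2 times, both for *Rfc4*. With 3 lines of 1 genotype, the values describe these lines only. Among the members, the smallest range that passed the test was 0.12 (*Pold2*), and smaller ranges passed in deeper genes such as *Ssrp1* (0.08).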
